A study of Homo sapiens with 6 samples.

Results

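Polycomb Repressive Complex 2 (PRC2) was followed through the RNA of 10 of its subunits: EZH2, EZH1, EED, SUZ12, RBBP4, RBBP7, JARID2, AEBP2, MTF2 and PHF19. They were chosen by gene symbol, and all 10 were found among the 57133 symbols of the count table. The RNA came from the established human glioblastoma cell line T98G after disruption of CBX8 by CRISPR. CBX8 is a chromobox subunit of the partner complex PRC1, which binds the histone mark that PRC2 makes. Of 6 libraries, 3 came from cells with an empty doxycycline-inducible TetO-FUW vector (CBX8 KO) and 3 from cells in which that vector carried V5-tagged wild-type CBX8 (WT CBX8 re-expression). Both groups shared the CBX8 knockout and the rtTA transactivator, and all 6 libraries were labelled as treated with doxycycline at 1 μg/ml for 72 h. The labels name the genotype of the re-expression libraries as wild type, although their titles and the methods describe the knockout line with CBX8 added back, and that reading was used. The 2 groups were separate virus-selected lines, no source says whether the knockout line was 1 clone, and no unedited T98G library was analysed here. Separate cultures are not stated for the replicates either, so n counts libraries, and each p-value measures the spread between libraries.

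PRC2 places up to 3 methyl groups on lysine 27 of histone H3 (H3K27me3), a mark of repressed developmental genes. EZH2 or its paralogue EZH1 carries the catalytic SET domain, EED binds the finished mark and stimulates the enzyme, SUZ12 is the scaffold, and RBBP4 or RBBP7 contacts the histone. Accessory subunits divide the complex into 2 classes. A Polycomb-like protein (PHF1, MTF2 or PHF19) defines the first, while JARID2 and AEBP2 define the second. Glioblastoma is known for high EZH2.

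For 3 of the core subunits the genome holds a copy of at least 95% identity with a symbol of its own in the table, so a read from either locus could be assigned to the other. The copy of EZH2, EZH2P1 on chromosome 21, spans 290 of 2253 coding bases at 96.2% identity and had 0 to 2 counts, while those of SUZ12 and RBBP4 had more. Each pair of stretches below, from hg38 with GENCODE release 44 annotation, differs at 1 base in 100, given in capitals. They were picked within an exon for the fewest differences, with at least 1 away from the ends, and need not be typical of the copies. Copies were sought for coding sequence only, so the stretches do not set how firmly a whole SUZ12 or RBBP4 count can be read. The SUZ12 stretch lies at chr17:31975489-31975588 (plus strand), in coding exon 7 of 16, and its counterpart in the transcribed pseudogene SUZ12P1 at chr17:30768841-30768940 (plus strand).
SUZ12: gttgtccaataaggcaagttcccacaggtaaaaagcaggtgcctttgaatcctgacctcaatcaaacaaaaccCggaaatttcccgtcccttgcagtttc
SUZ12P1: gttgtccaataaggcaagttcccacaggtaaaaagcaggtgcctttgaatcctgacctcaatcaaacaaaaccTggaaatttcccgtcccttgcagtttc
The RBBP4 stretch lies at chr1:32651953-32652052 (plus strand), in coding exon 2 of 12, and its counterpart in the processed pseudogene RBBP4P1 at chr5:14798246-14798345 (minus strand).
RBBP4: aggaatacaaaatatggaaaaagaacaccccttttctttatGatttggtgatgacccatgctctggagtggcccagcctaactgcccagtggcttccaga
RBBP4P1: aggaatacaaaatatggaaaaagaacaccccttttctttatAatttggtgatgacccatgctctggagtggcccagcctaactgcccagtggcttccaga
Such a copy covered 434 of the 2217 coding bases of SUZ12, with a longest identical run of 178 bases. Of 842 windows of 100 bases (the read length) within a coding exon of SUZ12, 7 were found letter for letter in SUZ12P1. RBBP4P1 covered all 1275 coding bases of RBBP4 at 97.2% identity, with a longest identical run of 173 bases. None of 290 windows within a coding exon of RBBP4 was identical, but windows across exon junctions were not counted. The run of 173 bases is longer than a read of 100 bases, so spliced reads inside it would match both loci. Paralogues within the complex shared only short runs. The longest identical coding run was 20 bases for EZH2 and EZH1, 26 bases for RBBP4 and RBBP7, and 12 bases for MTF2 and PHF19.

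The table held between 7950190 and 8659796 counts per library, and 14461 genes had enough of them to be tested. Of 6 genes fixed to check the line, VIM, CD44, TNC, FN1 and MGMT were tested and NES had 0 to 4 counts per library. Of 14 markers of leukocytes, endothelium, epithelium, oligodendrocytes, neurons and astrocytes, 11 stayed at 10 counts or fewer in any library, MOG and AQP4 among them at 0, and none of the 3 tested was called. The 3 tested (SYT1, SNAP25 and GFAP) did not overlap between conditions and were higher upon re-expression, as were 14.4% of all genes tested. The summed level of all 14 markers lay between 14.1 and 16.3 counts scaled to library size (CPM) in CBX8 KO. Upon re-expression it lay between 19.6 and 21.9 CPM. CBX8 itself had 83 to 104 counts in the CBX8 KO libraries and 27791 to 31408 upon re-expression, so its RNA separated the groups as labelled. These counts do not check the knockout itself, since no unedited T98G library was analysed here.

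Every tested gene was compared between WT CBX8 re-expression and CBX8 KO with edgeR's quasi-likelihood test and Benjamini-Hochberg adjustment, called at FDR < 0.05. None of the 10 subunits was called lower and none higher. Of all tested genes 12.9% were called in either direction (6.63% lower and 6.23% higher, or 959 and 901 genes), and among the 6508 genes in the same range of expression 15.9% were. No subunit had an unadjusted p under 0.05 in this fit either, beside 25.3% of all genes. With scaling by library size alone 1 subunit did, as did 1 without WT CBX8 re-expression replicate 3. The balance of calls over all genes moved with the scaling, to 592 lower and 1400 higher with library size alone and to 1345 lower and 806 higher with a correction for transcript length and GC content, added after seeing the data, and neither called a subunit. The log2 fold changes of the subunits, as WT CBX8 re-expression over CBX8 KO, lay between -0.11 (JARID2) and 0.09 (PHF19). Of these, 7 were above 0 and 3 below (4 were above 0 without WT CBX8 re-expression replicate 1), and over all genes 51.2% were above 0. Their median was 0.03 beside 0.0049 for all genes tested. The 10 subunits together summed to 957 ± 8.0 CPM (SD, n = 3) in the CBX8 KO libraries and to 955 ± 24 CPM in the re-expression libraries, on library sizes normalized by TMM, as are all CPM values here.

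**Figure D1:**
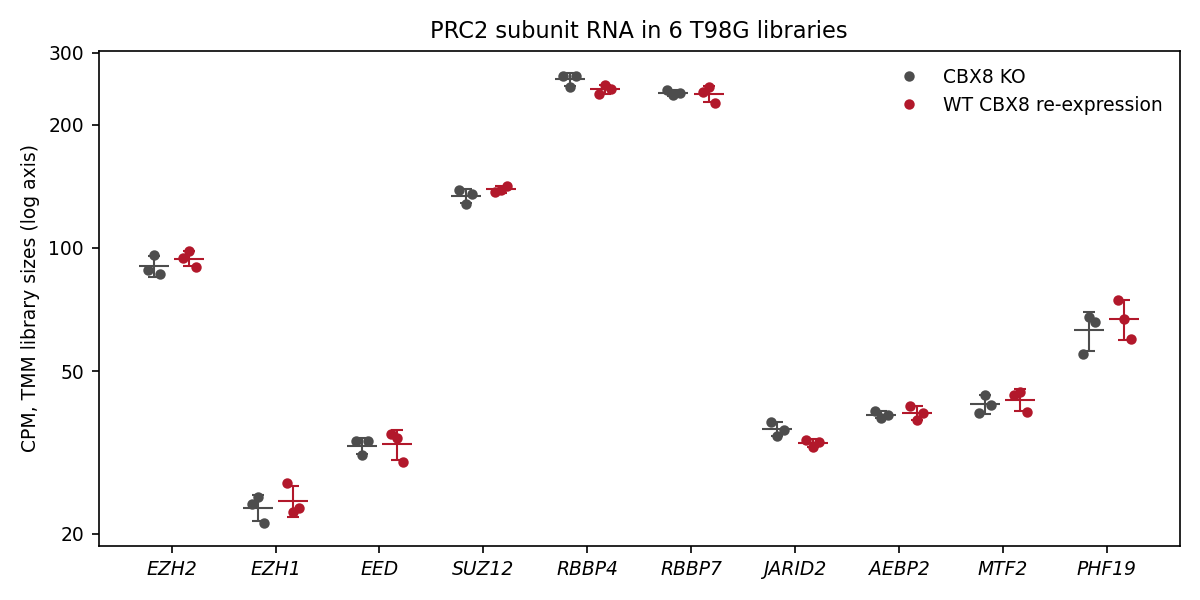
RNA level of each PRC2 subunit in CPM on a log axis, with 1 point per library, a bar at the mean of 3 libraries and error bars of 1 SD. The points of CBX8 KO and WT CBX8 re-expression interleave for every subunit except JARID2, whose re-expression libraries (32.6 to 34.0 CPM) sit below its CBX8 KO libraries (34.7 to 37.5 CPM).

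A p-value over the threshold does not show that a level stayed the same, so the interval of each difference was read as well. The 95% limit farthest from 0 among the 10 subunits was 0.28 on the log2 scale (the lower limit of JARID2). Of the 1860 called genes, 1138 (61.2%) had a log2 fold change larger than this, and the median size among called genes was 0.34. Differences of that size would therefore lie outside the interval of every subunit, while the smallest called difference in the table, 0.14, lay inside the intervals of 9 of them on at least 1 side.

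EZH2, the catalytic subunit of dividing cells (chromosome 7, 148807257 to 148884321, minus strand, 20 exons), was measured at 88.2, 96.2 and 86.1 CPM in the CBX8 KO libraries and at 94.5, 98.02 and 90.0 CPM upon re-expression. The ranges overlapped and the means differed by less than the larger SD, at 90.2 ± 5.3 and 94.2 ± 4.0 CPM (SD, n = 3). The log2 fold change was 0.06 (95% interval -0.06 to 0.18, adjusted p = 0.56 from edgeR), which spans a change between -3.99% and 13.4%. EZH1, the paralogue that prevails in resting cells (chromosome 17, 42700275 to 42745049, minus strand, 21 exons), rested on 166 to 226 counts. It stood at 23.7, 24.6 and 21.2 CPM in CBX8 KO and at 26.6, 22.6 and 23.1 CPM upon re-expression, again overlapping. Its log2 fold change was 0.05 with the widest interval of the catalytic pair, -0.15 to 0.26 (adjusted p = 0.80 from edgeR).

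EED, the reader of H3K27me3 within the complex (chromosome 11, 86201212 to 86278813, plus strand, 12 exons), was at 33.8, 31.1 and 33.7 CPM in CBX8 KO and at 35.0, 34.3 and 30.0 CPM upon re-expression. The third re-expression library was the lowest of all 6 and the other two were the highest, and the log2 fold change was 0.01 (-0.17 to 0.19). SUZ12, the scaffold (chromosome 17, 31937007 to 32001038, plus strand, 16 exons), was at 138, 128 and 135 CPM in CBX8 KO and at 137, 139 and 142 CPM upon re-expression. Its first CBX8 KO library lay within the re-expression range, and the log2 fold change was 0.05 (-0.05 to 0.16). SUZ12P1, the copy whose stretch is shown above, had 126 to 154 counts, or 11.7% to 13.2% of those of SUZ12. It was not called either, with a log2 fold change of 0.10 (-0.12 to 0.32, adjusted p = 0.60 from edgeR). Whether some of these counts were SUZ12 reads was not tested. A share of EED counts may likewise belong to an antisense lncRNA that overlaps 221 exonic bases, since no strand setting is given in the sources used here.

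RBBP4 and RBBP7, histone chaperones that PRC2 shares with deacetylase, remodelling and chromatin assembly complexes, had the narrowest intervals. RBBP4 (chromosome 1, 32651142 to 32686211, plus strand, 12 exons) was at 264, 247 and 263 CPM in CBX8 KO and at 238, 250.4 and 244 CPM upon re-expression. The second library of each condition overlapped the other condition, and the log2 fold change was -0.08 (-0.18 to 0.02, adjusted p = 0.33 from edgeR). RBBP4P1 had 27 to 40 counts, 1.33% to 1.86% of those of RBBP4. Of the exonic bases of RBBP4, 2160 lie opposite SYNC, which had 196 to 265 counts and was not called (-0.02). RBBP7 (chromosome X, 16839283 to 16870362, minus strand, 12 exons) was at 244, 236 and 239 CPM in CBX8 KO and between 226 and 247 CPM upon re-expression. The re-expression range enclosed the CBX8 KO range, and the log2 fold change of -0.01 (-0.11 to 0.09) was the closest to 0 of all 10. Of its exonic bases, 179 lie opposite TXLNG, which had 359 to 448 counts and was called lower (-0.23, adjusted p = 0.045 from edgeR), and the part of such reads in the RBBP7 count was not tested.

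JARID2 is the nucleosome-binding accessory subunit related to JmjC demethylases (chromosome 6, 15246069 to 15522042, plus strand, 18 exons). Only for this member did the conditions not overlap in CPM. It was at 37.5, 34.7 and 35.96 CPM in CBX8 KO and at 34.0, 32.6 and 33.5 CPM upon re-expression. Such separation of 3 libraries from 3 occurred for 28.9% of all genes tested, so 1 of 10 subunits lies below that share. The log2 fold change was -0.11 (-0.28 to 0.06, adjusted p = 0.43 from edgeR), a difference between -17.8% and 4.02%. In bulk RNA, less transcript per cell and fewer cells that transcribe a gene cannot be told apart. AEBP2, its zinc finger partner (chromosome 12, 19404045 to 19720801, plus strand, 8 exons), was at 39.9, 38.5 and 39.0 CPM in CBX8 KO and at 41.1, 38.0 and 39.4 CPM upon re-expression. The re-expression range enclosed the CBX8 KO range, with a log2 fold change of 0.01 (-0.15 to 0.17).

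Of the Polycomb-like subunits, which bind unmethylated CpG-rich DNA and histone H3 methylated at lysine 36, PHF19 (chromosome 9, 120855651 to 120894896, minus strand, 15 exons) varied most among libraries. It was at 54.9, 68.0 and 65.8 CPM in CBX8 KO and at 74.6, 66.9 and 59.8 CPM upon re-expression. The extremes were the first library of each condition, and the means of 62.9 ± 7.0 and 67.1 ± 7.4 CPM (SD, n = 3) differed by less than either SD. The log2 fold change was 0.09 (-0.07 to 0.26, adjusted p = 0.51 from edgeR). It ran from 0.0033 without CBX8 KO replicate 1 to 0.17 without WT CBX8 re-expression replicate 3, and was 0.0081 without WT CBX8 re-expression replicate 1. MTF2 (chromosome 1, 93079235 to 93139079, plus strand, 15 exons) was at 39.5, 43.7 and 41.2 CPM in CBX8 KO and at 43.6, 44.4 and 39.6 CPM upon re-expression, and its log2 fold change was 0.04 (-0.12 to 0.198). The third member of the family, PHF1, had 0 to 3 counts in each library, too few to be tested at this depth.

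For the paralogue pairs EZH2 and EZH1, RBBP4 and RBBP7, and MTF2 and PHF19, which can replace each other in the complex, and for the partners JARID2 and AEBP2, 4 ratios of counts within a library were compared, which do not depend on library scaling. The EZH2 to EZH1 ratio was 3.72, 3.91 and 4.05 in CBX8 KO and 3.56, 4.33 and 3.90 upon re-expression, so the re-expression range enclosed the other. The mean log2 ratio differed by 0.01 (p = 1, two-sided exact permutation test, n = 3 per group). RBBP4 to RBBP7 differed by -0.07 (exact p = 0.2) and MTF2 to PHF19 by -0.06 (exact p = 0.6). JARID2 to AEBP2 was 0.940, 0.901 and 0.921 in CBX8 KO and 0.826, 0.856 and 0.849 upon re-expression. All 3 re-expression libraries were lower, by 0.13 on the log2 scale (exact p = 0.1, the smallest that 3 against 3 allows, and 0.4 after Benjamini-Hochberg adjustment over the 4 ratios).

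Levels of different subunits were compared only per transcript length, as TPM, counts per base of the canonical transcript scaled to the same total in each library. RBBP7 stood highest, at 226 to 247 TPM in the 6 libraries. EZH2 (70.2 to 84.3 TPM), RBBP4 (68.5 to 72.5 TPM) and SUZ12 (62.3 to 72.1 TPM) followed, and neighbours in this trio overlapped. EED (32.5 to 39.2 TPM) and PHF19 (28.1 to 42.0 TPM) overlapped as well. MTF2 (20.6 to 25.0 TPM) and AEBP2 (14.4 to 16.5 TPM) stood apart from their neighbours, and JARID2 (12.4 to 13.2 TPM) overlapped EZH1 (9.92 to 13.4 TPM) at the bottom. The order depends on the length that is used. Over the union of all annotated exons, EZH2 fell to a mean of 30.5 TPM, below PHF19, RBBP7 stayed first at 116 TPM, and RBBP4 (94.3 TPM) and SUZ12 (74.2 TPM) came next. The counts do not separate isoforms. TPM does not use the TMM scaling, and here JARID2 overlapped between CBX8 KO (12.6 to 13.2) and re-expression (12.4 to 13.2), per canonical length. SUZ12 (62.3 to 65.3 and 70.4 to 72.1 TPM) and AEBP2 (14.4 to 14.5 and 14.9 to 16.5 TPM) did not overlap, both higher upon re-expression. Which subunits separate therefore depends on the scaling, and the share of all genes that separate in TPM was not computed. With library size scaling alone, also without TMM, the median log2 fold change of all genes tested was 0.06. The separation in TPM therefore cannot be read as a result about SUZ12 and AEBP2 themselves.

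**Figure D2:**
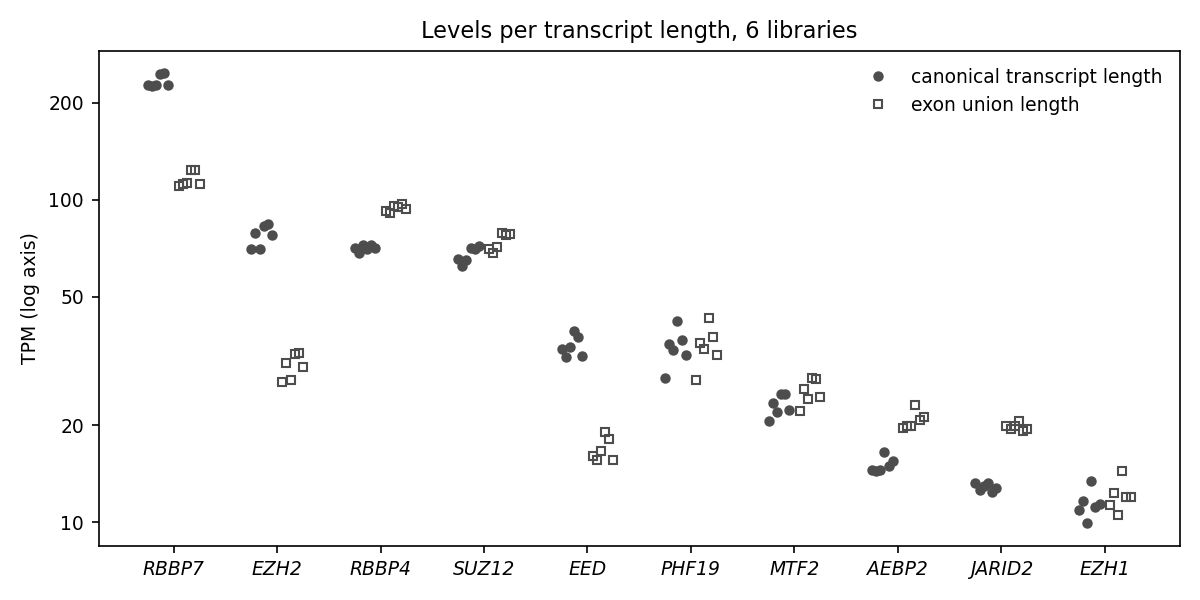
TPM of the 10 subunits on a log axis in 6 libraries, over the length of the canonical transcript (filled circles) and of the exon union (open squares), ordered by the former. RBBP7 is highest by both lengths, and EZH2, EED and RBBP7 drop most from circles to squares.

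Within each library, EZH1 made up 12.8 ± 0.49% (SD, n = 3) of the summed EZH1 and EZH2 level per canonical length in CBX8 KO and 12.8 ± 1.1% upon re-expression. EED stood at 0.41 ± 0.04 of the summed EZH level in CBX8 KO and 0.39 ± 0.02 upon re-expression, and SUZ12 at 0.77 ± 0.07 and 0.76 ± 0.04. Over the exon union the share of EZH1 became 28.4 ± 0.89% and 28.3 ± 2.0%, and SUZ12 stood at 1.76 ± 0.16 and 1.74 ± 0.10 of the summed EZH level, so these proportions depend on the length used, while the conditions stayed within 1 SD of each other by both lengths. RNA of the 2 Polycomb-like subunits exceeded that of JARID2 and AEBP2 by 1.75 to 2.19 times in CBX8 KO and by 1.96 to 2.26 times upon re-expression, ranges that overlap (1.26 to 1.63 times in all 6 libraries over the exon union). These are RNA levels, and no protein or H3K27me3 measurement was analysed here.

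The remaining genes known to act with PRC2 were mostly near the lower limit of detection. EPOP, a partner of the Polycomb-like class, had 0 to 3 counts. EZHIP, an inhibitor of EZH2 that mimics a mutant histone, had 0 counts in all 6 libraries, which is a statement about this depth and not absence. SKIDA1 had 8 to 15 counts, with a log2 fold change of 0.11 (-0.64 to 0.86). LCOR was the exception. Its locus (chromosome 10, 96832254 to 96995956, plus strand) also encodes PALI1, a PRC2 accessory protein, and the counts do not separate the isoforms. LCOR was at 53.9, 52.2 and 49.1 CPM in CBX8 KO and at 54.8, 69.8 and 74.2 CPM upon re-expression. The first re-expression library was barely above the CBX8 KO range, and the other two stood clearly higher. LCOR rose by a log2 fold change of 0.36 (standard error 0.08, adjusted p = 0.0043 from edgeR), and in all 15 alternative analyses it remained called, at 0.27 to 0.47. LCORL, whose locus encodes the related PALI2, was not called (-0.12, interval -0.27 to 0.03, adjusted p = 0.30 from edgeR), and part of its exons lie opposite NCAPG.

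LCOR has a canonical transcript of 16001 bases, and in these libraries the fold change moved with transcript length. The 1054 expressed genes over 8 kb had a median log2 fold change of 0.06, with 15.9% called higher and 6.07% lower, against -0.01, 4.09% and 6.85% for genes up to 2 kb. Among re-expression libraries the median deviation of genes over 8 kb was -0.03, 0.03 and 0.09, the same order as that of LCOR. LCORL, with a canonical transcript of 10321 bases, stood at -0.12. Whether transcript length has a part in the LCOR difference was not tested. After the correction for length and GC content in each library, LCOR stood at 0.27 (adjusted p = 0.0050 from edgeR), and no PRC2 subunit was called, with the lowest adjusted p for RBBP4 (-0.10, adjusted p = 0.14).

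**Figure D3:**
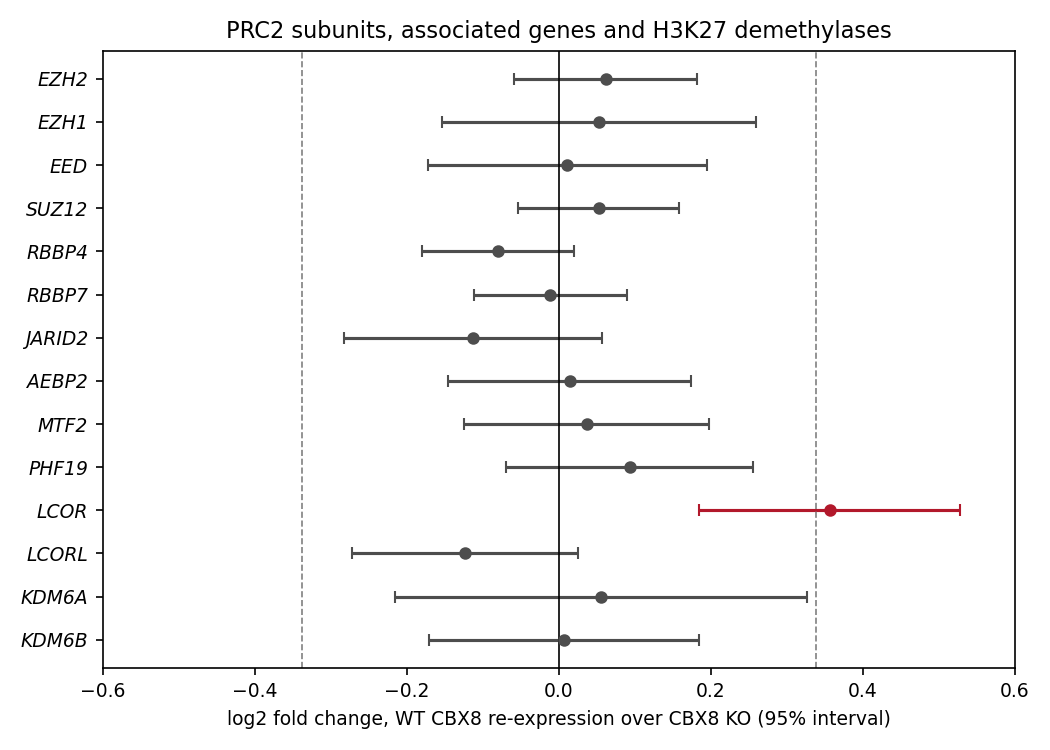
Log2 fold change of the 10 PRC2 subunits, LCOR, LCORL and the H3K27 demethylases (WT CBX8 re-expression over CBX8 KO), with 95% intervals from edgeR's fit. Dashed lines mark the median size of called genes, 0.34 in either direction. The intervals of all 10 subunits include 0 and end inside the dashed lines, and LCOR (red) is the only gene shown that was called.

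Enzymes that act against PRC2 were compared in the same fit. The H3K27 demethylases KDM6A (0.06, interval -0.22 to 0.33) and KDM6B (0.01, interval -0.17 to 0.18) were not called. Of 7 writers of H3K27 acetylation or H3K36 methylation, marks that oppose H3K27me3 on the same histone tail, 0 were called lower and 2 higher, with a median of 0.08, beside 6.63% of all genes called lower and 6.23% higher. NSD1, which methylates H3K36, rose from 150.5 ± 6.7 to 182 ± 11 CPM (SD, n = 3), a log2 fold change of 0.28 (adjusted p = 0.00079 from edgeR). CREBBP, an acetyltransferase of H3K27, rose from 174 ± 10 to 198 ± 10 CPM, with a log2 fold change of 0.19 (adjusted p = 0.020 from edgeR). Both canonical transcripts exceed 8 kb, as do those of the other writers except NSD2 (7560 bases). Of all expressed genes over 8 kb, 15.9% were called higher and 6.07% lower, with a median of 0.06. With the length and GC correction NSD1 stood at 0.19 (adjusted p = 0.0047 from edgeR) and CREBBP at 0.05, no longer called (adjusted p = 0.48). The call of CREBBP was also lost in DESeq2 (adjusted p = 0.053) and without CBX8 KO replicate 2 (0.18), WT CBX8 re-expression replicate 2 (0.052) or replicate 3 (0.12).

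RBBP4 and RBBP7 also serve the NuRD, SIN3, CAF-1 and NURF complexes. Of 19 tested partners in these or, for HAT1, in another complex, 1 was called lower and 1 higher. Their median was -0.04, and 12.9% of all genes were called in either direction. CHD3, a remodelling ATPase of NuRD, rose from 132 ± 9.7 to 157 ± 3.7 CPM (SD, n = 3; log2 fold change 0.25, adjusted p = 0.0021 from edgeR), and its libraries did not overlap. With the length and GC correction it stood at 0.16 (adjusted p = 0.027 from edgeR). SAP30, a SIN3 subunit, fell by 0.34 on the log2 scale (adjusted p = 0.047 from edgeR), although its libraries overlapped and the call was lost in 8 of the alternatives, among them the omission of CBX8 KO replicates 1 or 2 and of WT CBX8 re-expression replicates 2 or 3.

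EZH2, EED and SUZ12 are known as genes of dividing cells, so 22 proliferation genes were set beside them. Of these, 4 were called lower and 0 higher, with a median of -0.05, beside 6.63% of all genes called lower and 6.23% higher. MCM4, a subunit of the replicative helicase, fell from 339 ± 7.7 to 295 ± 7.5 CPM (SD, n = 3; log2 fold change -0.20, adjusted p = 0.0050 from edgeR). PCNA, the sliding clamp of DNA polymerase, fell from 360.4 ± 19 to 312 ± 9.7 CPM (-0.21, adjusted p = 0.0055). MCM7 (-0.17) and MCM3 (-0.15) were called as well, and both lost their calls with library size scaling, in DESeq2, and without CBX8 KO replicates 2 or 3 or WT CBX8 re-expression replicate 3. MCM3 also lost its call without WT CBX8 re-expression replicates 1 or 2. The highest adjusted p over all alternatives was 0.17 for MCM7 and 0.23 for MCM3. The number called lower ranged from 2 to 5 over the 15 alternatives. It was 2 without CBX8 KO replicate 2, CBX8 KO replicate 3 or WT CBX8 re-expression replicate 3. It was also 2 in DESeq2, with the replicate block and with library size scaling. With library size scaling 1 gene was called higher and the median was 0.0093, so the direction depends on the scaling. Without WT CBX8 re-expression replicate 1, 1 gene was called higher as well. The lower 95% limit was -0.06 for EZH2, -0.05 for SUZ12 and -0.17 for EED, so the interval of EED alone reached the value of MCM3.

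Genes that PRC2 is known to mark in other cells were the last comparison, as 34 developmental and signalling genes outside the HOX clusters. Of these, 17 were tested, 17 had at most 8 counts in any library, and 9 of the latter had 0 in all. Among the 17 tested, 5 were called lower and 1 higher, with a median of 0.01, beside 6.63% lower, 6.23% higher and a median of 0.0049 for all genes. The list was chosen with results of these libraries known, so its direction is not independent evidence, and whether any of them carried H3K27me3 here was not tested. SLIT2, a secreted axon guidance ligand, fell from 118 ± 4.3 to 96.8 ± 7.9 CPM (SD, n = 3; log2 fold change -0.29, adjusted p = 0.0015 from edgeR). TBX3, a T-box repressor, fell from 249 ± 5.9 to 215 ± 7.2 CPM (-0.21, adjusted p = 0.0037). GATA6, a zinc finger factor of endoderm, fell by 0.52 on the log2 scale (adjusted p = 0.0069) and lost its call in DESeq2 (0.056) and without CBX8 KO replicate 2 (0.0504). NKX6-1 (-0.68, on 21 to 38 counts) and DAB2IP (0.30) were also called, and were named after their values were seen. NKX6-1 was not called when any library was left out, and DAB2IP was not in 5 of those 6 omissions. DAB2IP also lost its call in DESeq2 (adjusted p = 0.16), with no filter (0.072) and with the length and GC correction, where it stood at 0.16 (0.24), and NKX6-1 lost its call in DESeq2 (0.21) and limma voom (0.0506), and with upper quartile (0.051) or library size scaling (0.066). The number called lower ranged from 3 to 5 over the alternatives and was 3 in DESeq2 and without CBX8 KO replicate 2. Summed over all 34 genes, the level was 516 to 522 CPM in CBX8 KO and 448 to 458 CPM upon re-expression.

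**Figure D4:**
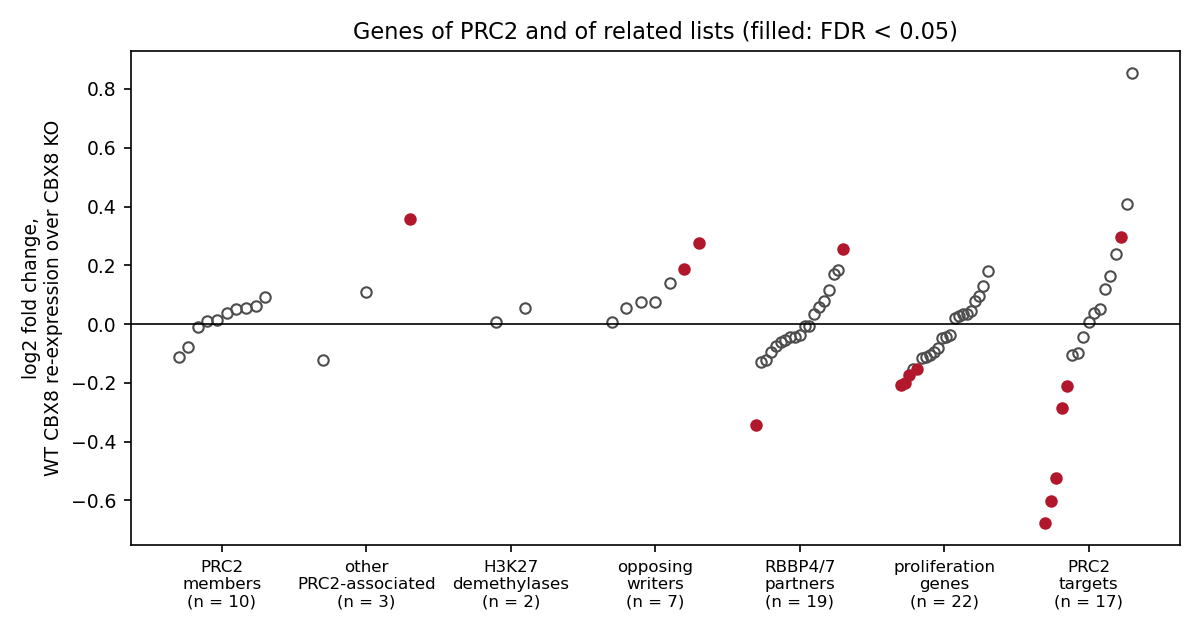
Log2 fold change of every tested gene of PRC2 and of 6 related lists (WT CBX8 re-expression over CBX8 KO), 1 circle per gene, sorted within its list and filled where FDR was under 0.05. The 10 PRC2 members lie between -0.11 and 0.09 with no filled circle, whereas called target genes reach from -0.68 to 0.30.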

How the data were processed

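Poly(A) RNA of 6 T98G libraries was sequenced as 100 bp paired-end reads by a sequencing service, after which the authors used Trimmomatic for trimming and HISAT2 for alignment to hg38. Their deposited table holds unnormalized counts for each gene symbol. The counting program, annotation and strand setting are not given in the sources used here, and duplicates carry no molecular identifiers. The 10 subunits and the gene lists were chosen with earlier results of these data known.

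Counts were analysed in R 4.3.3 with edgeR 4.0.16 (filterByExpr, TMM, glmQLFit and glmQLFTest at their defaults, condition as the only term, Benjamini-Hochberg adjustment over 14461 genes, FDR < 0.05), and the procedure was tested on simulated data. Standard errors were the absolute log2 fold change over the square root of F, and 95% intervals used the t quantile of the fit. Ratios had 0.5 counts added. GENCODE release 44 gave a match by name for 36501 symbols and by RefSeq synonym for 896, and copies of coding sequence were sought in hg38 with BLAST+ 2.17.0. Named genes were the 10 subunits, CBX8, the PRC2-associated genes, the H3K27 demethylases, and at most 4 called genes with the smallest adjusted p from each other list, apart from those said to be named later. A single gene that this rule names is not reported here.

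Total counts (7950190 to 8659796) and a coefficient of variation between libraries of 4.70% set the precision. Alternative settings were scaling by RLE, by upper quartile or by library size alone, DESeq2 1.42.0, limma 3.58.1 (voom), edgeR with legacy set to FALSE, 2 other filters, a block for the replicate number, and the omission of each of the 6 libraries in turn. A correction for length and GC content (known for 87.8% of tested genes) was added after seeing the data. Same-numbered libraries did not deviate together (r = -0.13, -0.08 and -0.10 over 11402 genes), so the numbers were not taken as pairs. Between differently numbered libraries r ran from -0.07 (CBX8 KO replicate 2 with WT CBX8 re-expression replicate 3) to 0.16 (CBX8 KO replicate 1 with WT CBX8 re-expression replicate 3). Whether libraries share a structure across conditions was not tested.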

Additional observations from a re-analysis of the deposited data

How the results depend on the processing

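None of the 10 PRC2 subunits was called in any of 160 alternative fits (lowest adjusted p 0.14). These fits kept the direction in 149 cases. The 11 turns of direction all concerned values near 0. EED stood at -0.0016 with no filter. RBBP7 stood at 0.0014 with upper quartile scaling, 0.045 with library size scaling and 0.016 with the length and GC correction. Over the omissions of single libraries the log2 fold change ran from -0.025 to 0.098 for EZH1, -0.033 to 0.074 for EED, -0.039 to 0.020 for RBBP7, -0.018 to 0.042 for AEBP2, -0.12 to 0.37 for SKIDA1, -0.028 to 0.15 for KDM6A and -0.034 to 0.053 for KDM6B, which was also at -0.0067 with no filter and -0.13 with the length and GC correction. The log2 ratio ran from -0.064 to 0.078 for EZH2 to EZH1 and from -0.097 to 0.0036 for MTF2 to PHF19.

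Over all genes, 592 were called lower and 1400 higher with library size scaling, against 959 and 901 with TMM, DESeq2 called 501 higher, and the length and GC correction gave 1345 lower and 806 higher. Omitting single libraries gave 635 to 851 lower and 593 to 792 higher, the fewest without WT CBX8 re-expression replicate 2. With the replicate block, 766 genes were lower and 739 higher, and no subunit was called, while SAP30, MCM3, MCM7, NKX6-1 and DAB2IP lost their calls. With the exon union length the mean levels became 30.5 TPM for EZH2, 16.8 for EED, 74.2 for SUZ12, 94.3 for RBBP4, 116 for RBBP7, 19.7 for JARID2, 20.7 for AEBP2 and 25.4 for MTF2. The causes of these shifts were not tested. PHF1, EPOP, EZHIP and SKIDA1 had at most 15 counts in any library, which limits what can be read from them. The reason for these low counts was not tested.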
